A study of Mus musculus with 8 samples.

Results

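The genes described here are the 38 genes of the mouse count table that make, carry, degrade or receive the monoamines dopamine, noradrenaline, serotonin and histamine, out of 55416 genes counted. They were listed by gene symbol and known function: 3 enzymes of catecholamine synthesis, 1 each of serotonin and histamine synthesis, 4 transporters, 2 degrading enzymes, and 5 dopamine, 12 serotonin, 7 adrenergic and 3 histamine receptors. Polyadenylated RNA of cerebral cortex had been sequenced in 4 libraries from mice heterozygous for the L192P substitution in Ago2 (AGO2_L192P/+, called L192P) and in 4 libraries from wild-type mice (WT). Ago2 encodes Argonaute 2, which carries microRNAs to their target mRNAs, and L192P is a substitution found in people with a neurodevelopmental syndrome. The allele was made by gene editing as a constitutive knock-in, so every cell of the mouse carried it together with a wild-type allele, and gene counts cannot show the substitution itself. Age and sex of these mice were not given in the sources used here, no treatment was named, and each library was labelled as a replicate of its genotype.

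Monoamine neurons have their cell bodies in the midbrain, hypothalamus, pons and medulla and send axons over the whole cortex, where the transmitters act on receptors of cortical cells. Tyrosine hydroxylase, tryptophan hydroxylase and histidine decarboxylase set the pace of synthesis, the vesicular transporter loads the transmitter, plasma membrane transporters take it back, and the monoamine oxidases degrade it. In these cortex libraries, synthetic enzymes and transporters made up a small part of the counts of these genes, and most came from receptors and oxidases. The cells that the mRNA of the synthetic enzymes and transporters came from were not tested.

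The libraries held 20396357 to 43575900 counts. L192P replicate 3 stood apart from the other L192P libraries in several of the genes below, and results that rest on it are given with and without it. Libraries of the same replicate number deviated from their genotype means together, so the fit with the replicate number as a block is given where it changed a call. Replicate 1 of each genotype had 0.934 and 1.82 normalized counts of Xist, the X-inactivation RNA of female cells, and the other 6 libraries had 5185 to 7257. Replicate 1 also held 3547 (L192P) and 3534 (WT) counts of chromosome Y genes, and the other 6 libraries held 186 to 573. Each genotype thus had 1 library with the male pattern of these genes. A normalized count is the deposited count divided by the DESeq2 size factor of its library. In bulk tissue, fewer cells of a type and less RNA per cell cannot be told apart.

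No monoamine gene differed between L192P and WT at a DESeq2 adjusted p under 0.05 with genotype as the only term. Of the 38 genes, 35 received an adjusted p, and over all genes 253 of 18627 (1.36%) were called. At an unadjusted p under 0.05 there were 9 of the 35 (Ddc, Hdc, Slc18a2, Htr1d, Htr2c and Htr4 with higher values in L192P, and Drd2, Htr1b and Adra1d with lower ones), against 9.44% of all tested genes. edgeR and voom called 0 of the genes as well. The log2 fold changes were above 0 for 19 genes and below 0 for 16, with a median of 0.05 beside 0.00 over all tested genes. The 4 L192P and 4 WT values did not overlap for 6 of the 35 genes (Ddc, Htr1d, Htr7 and Adra2b higher, Drd2 and Htr1b lower), and the same was true of 5.97% of all tested genes. The L192P library was on the same side of the WT library of its number in all 4 pairs for 11 genes, a pattern shown by 23.8% of all tested genes.

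With the replicate number as a block, 3 of the 26 monoamine genes with an adjusted p were called: Ddc and Htr2c rose in L192P and Drd2 fell. Over all genes 533 of 12536 (4.25%) were called in that fit, and 2.43% were called lower. edgeR with the same block called Ddc, Drd2 and Htr2a. Without L192P replicate 3 and without the block, Ddc alone was called, beside 0.76% of all genes tested then.

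**Figure D1:**
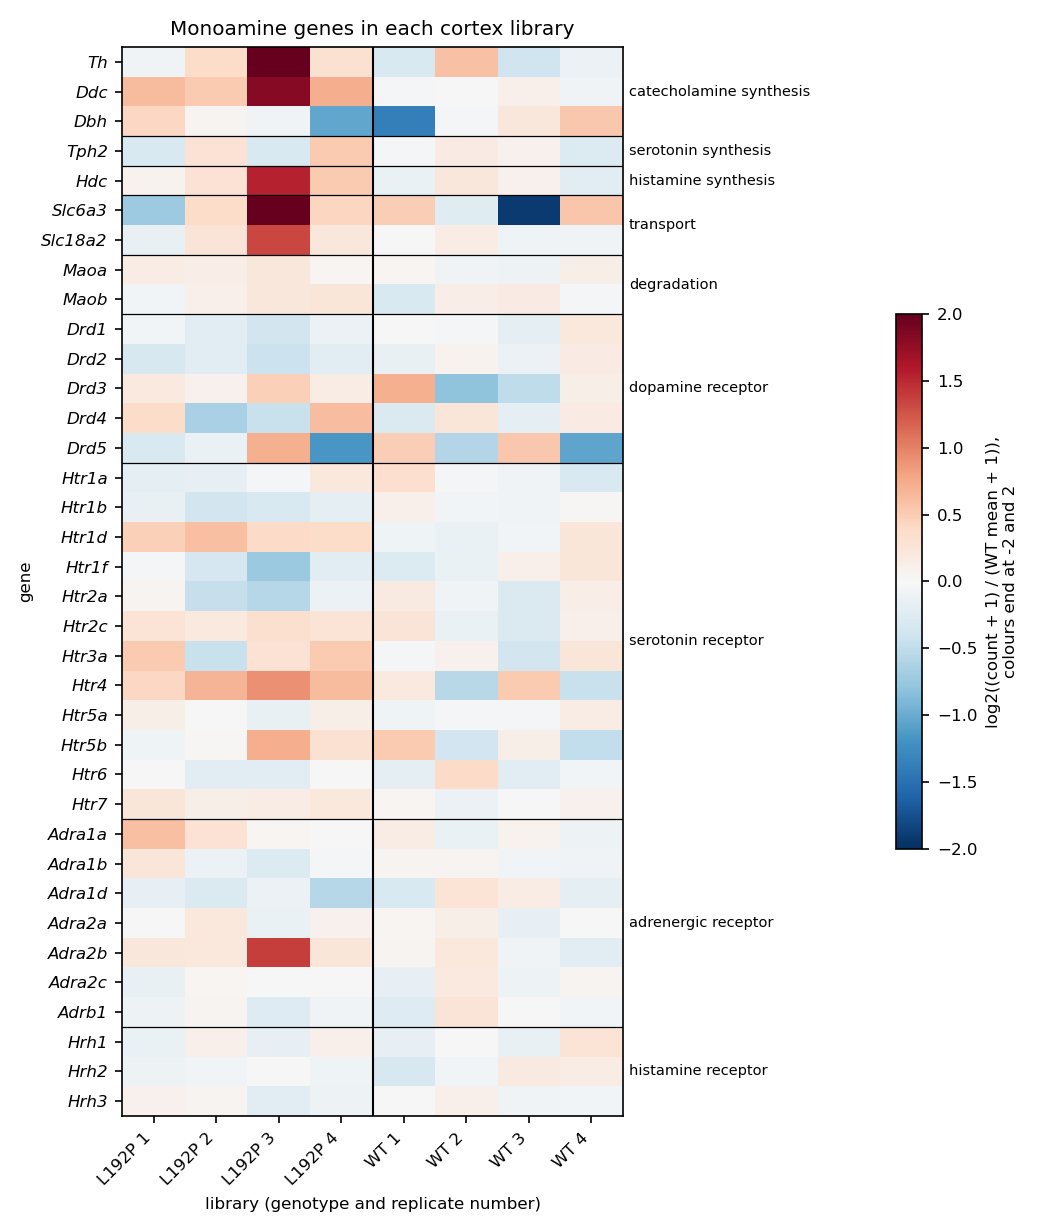
The colour gives log2 of the normalized count plus 1 over the WT mean plus 1, for the 36 monoamine genes with a mean of at least 1 normalized count, in each of the 8 libraries. Th, Ddc, Hdc, Slc6a3, Slc18a2 and Adra2b are reddest in L192P replicate 3, Ddc and Htr1d are red in all 4 L192P libraries, and Drd2 is blue in all 4.

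**Figure D2:**
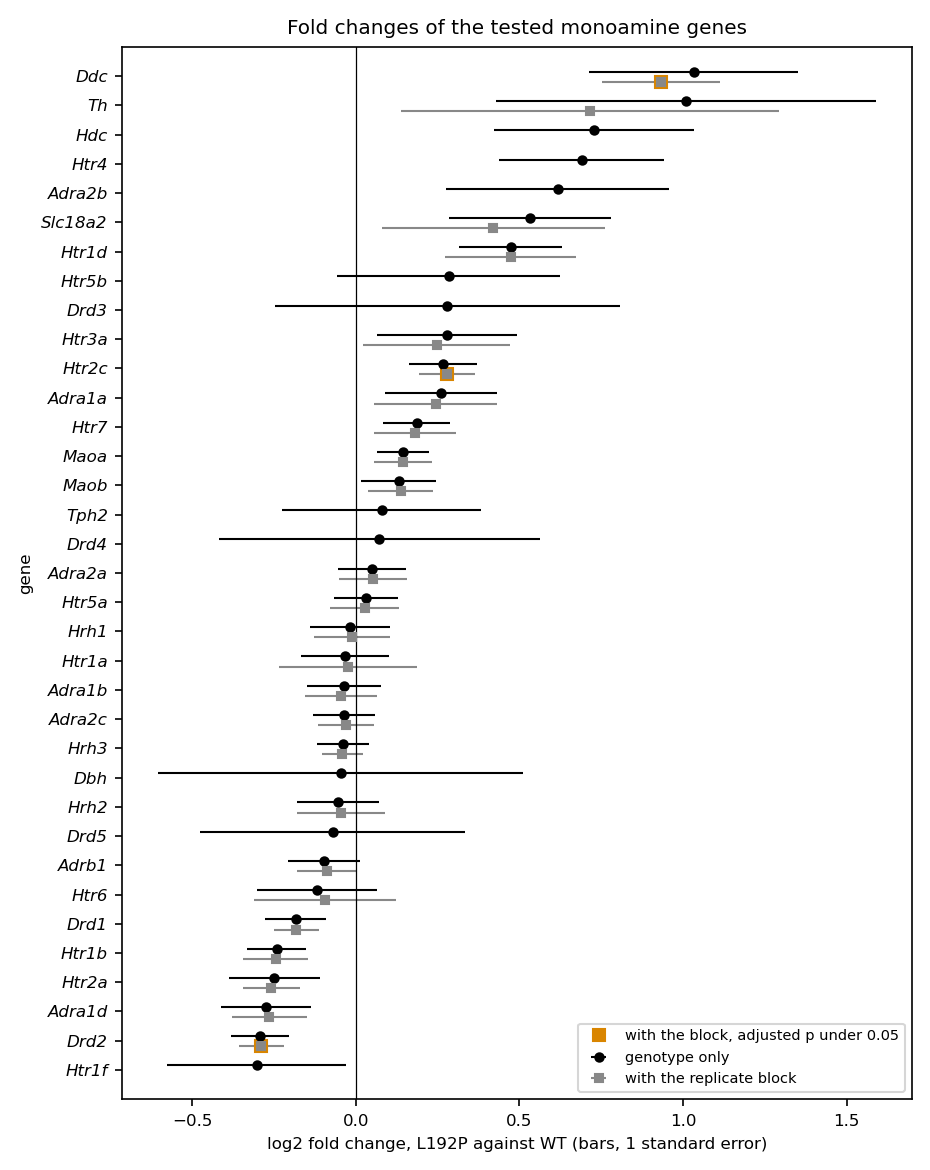
Points are the log2 fold changes of L192P against WT for the 35 tested monoamine genes, with 1 standard error, black without and grey with the replicate block, and an orange square marks an adjusted p under 0.05 with the block. Ddc, Htr2c and Drd2 carry the square, and the 3 histamine receptors lie within 1 standard error of 0.

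Levels were compared between genes as normalized counts per kb of exon in the 4 WT libraries. The exon length took in all annotated exons of a gene (3143 bases for Drd2, 10308 for Ddc). It can exceed the length of an mRNA, and the order of the genes depends on it. Drd2, the inhibitory dopamine receptor, and Hrh3, the histamine receptor that restrains transmitter release, were the highest at 522 ± 56.0 and 499.7 ± 26.8 per kb (SD, n = 4), which did not differ beyond their spread. Drd1, the stimulatory dopamine receptor, followed at 355 ± 40.1 per kb, and Adrb1 and Adra2c came next at 259 ± 37.7 and 241 ± 27.1 per kb with overlapping libraries. The WT libraries also held markers of striatal neurons, which carry Drd1 and Drd2, with mean normalized counts of 10610 for Penk and 2514 for Adora2a. The part of striatal tissue in the levels of Drd1 and Drd2 was not tested. Slc6a3 at 1.36 ± 0.877 and Dbh at 2.22 ± 1.09 per kb had the lowest means of the genes counted in WT. Th had 11.3 ± 3.94 and Tph2 10.9 ± 1.48 per kb. Some receptors had lower means than Th and Tph2, among them Htr1f at 7.79 ± 1.29 and Drd4 at 3.33 ± 0.652 per kb. Ddc at 16.8 ± 0.819 and Slc18a2 at 27.3 ± 2.14 per kb were the most abundant of the presynaptic genes.

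**Figure D3:**
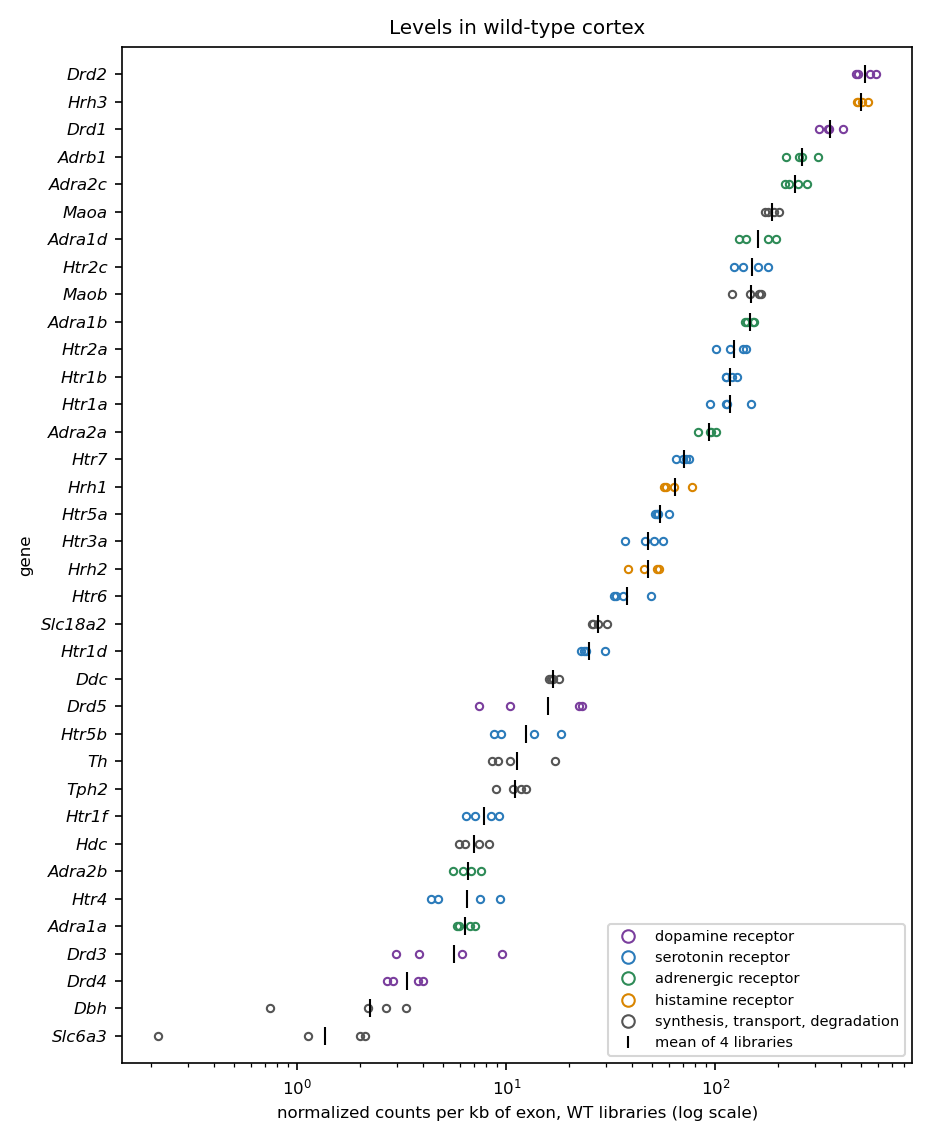
Circles are the WT libraries and black ticks their means, as normalized counts per kb of exon on a log axis, for the 36 monoamine genes counted in WT. Drd2 and Hrh3 lead, and Slc6a3 and Dbh close the order.

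Ddc, DOPA decarboxylase, which makes dopamine and serotonin from their precursors, had the largest log2 fold change of the 35 tested monoamine genes. Its normalized counts were 269, 249, 609.9 and 286 in L192P replicates 1 to 4 and 169, 172, 185 and 165 in WT. Every L192P library lay above every WT library, and replicate 3 lay far above the rest. Its log2 fold change was 1.03 ± 0.32 (SE) with a DESeq2 adjusted p of 0.075, and with the replicate block it was 0.93 ± 0.18 with an adjusted p of 4.0e-05. Without L192P replicate 3 it was 0.64 ± 0.14 with an adjusted p of 0.0012, and with the block as well the adjusted p was 0.076. Ddc lies on chr11:11762602-11848150 of GRCm39, minus strand.

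Th, tyrosine hydroxylase, the rate-limiting enzyme of catecholamine synthesis, had 76.6, 104, 368 and 99.4 normalized counts in L192P and 64.7, 121, 60.8 and 73.8 in WT. Only L192P replicate 3 was outside the range of the WT libraries. For Th the log2 fold change of 1.01 ± 0.58 (adjusted p = 0.63) became 0.20 ± 0.27 (adjusted p = 0.99) without that library. Dbh, dopamine beta-hydroxylase, which turns dopamine into noradrenaline, was near the limit of counting at 14.9, 11.4, 10.4 and 4.79 normalized counts in L192P and 3.64, 10.7, 13.0 and 16.4 in WT. The groups overlapped fully, with a log2 fold change of -0.05 ± 0.56 (adjusted p = 0.998).

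Tph2, the neuronal tryptophan hydroxylase of serotonin neurons, had 25.2, 38.7, 25.4 and 45.5 normalized counts in L192P and 31.0, 35.6, 33.7 and 25.8 in WT. The ranges overlapped, and the log2 fold change was 0.08 ± 0.30 (adjusted p = 0.99). Hdc, histidine decarboxylase, which makes histamine, had 50.4, 59.2, 142 and 69.5 in L192P and 43.7, 56.5, 51.1 and 41.0 in WT libraries. L192P replicate 3 was again the highest library. For Hdc the log2 fold change was 0.73 ± 0.31 (adjusted p = 0.33), and 0.30 ± 0.27 (adjusted p = 0.95) without that library.

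Slc6a3, the dopamine transporter and a defining gene of midbrain dopamine neurons, had 3.74, 9.10, 629.5 and 9.58 normalized counts in L192P and 10.02, 5.65, 1.09 and 10.5 in WT. The signal came from L192P replicate 3, and the other 3 L192P libraries lay within the WT range. DESeq2 withheld its p for the extreme library, and the log2 fold change of 4.58 ± 1.57 fell to 0.12 ± 0.77 without it. Slc18a2, the vesicular monoamine transporter, had 137, 182, 384 and 178 in L192P and 153, 168, 142 and 144 in WT, again highest in replicate 3. Slc18a2 had a log2 fold change of 0.53 ± 0.25 (adjusted p = 0.43), and 0.12 ± 0.17 (adjusted p = 0.99) without that library. Slc6a2, the noradrenaline transporter, had 0 counts in every library, which allows up to 3 of the 202490608 counts of all libraries. Slc6a4, the serotonin transporter, had 1 count in all, in L192P replicate 3. The limit for a count of 0 covers counting error only.

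**Figure D4:**
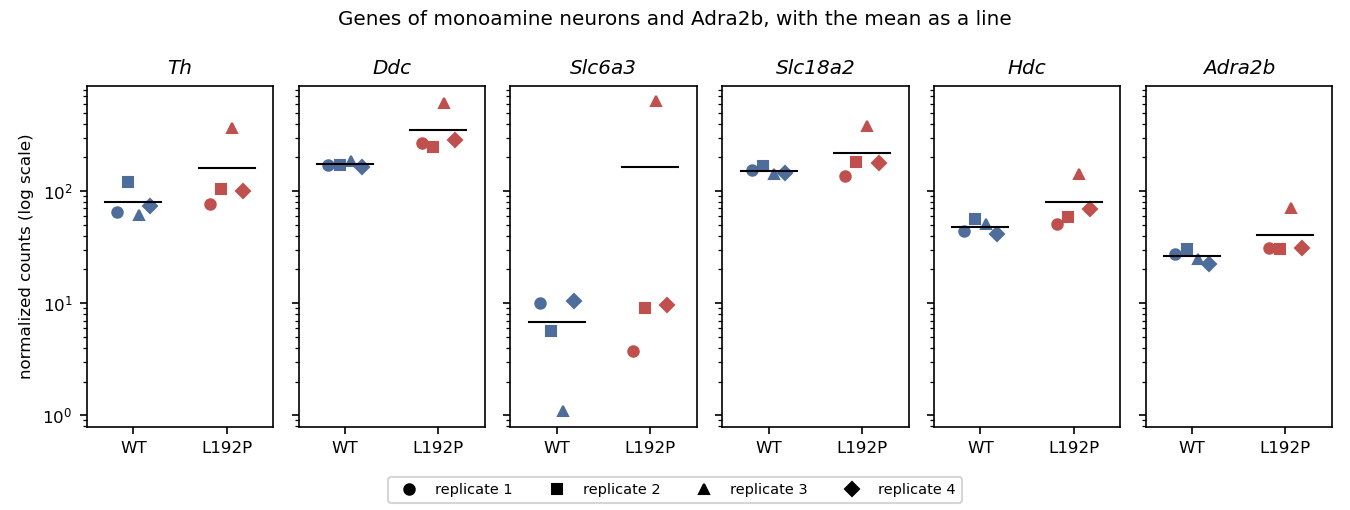
Each point is the normalized count of a library on a log axis, with a shape for each replicate number and a line for the mean of the 4 libraries of a genotype. L192P replicate 3 (red triangle) is the highest library in all 6 panels, and only in Ddc and Adra2b do the other L192P libraries also lie above every WT library.

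The same library was the highest of the 8 for 11 of the 36 monoamine genes with a mean of at least 1 normalized count, beside 3452 of 24118 genes over the whole table. Genes that mark monoamine cell bodies were high in it too. Of 15 transcription factors and markers of these neurons, 11 had a mean of at least 1, and 9 of the 11 were highest in L192P replicate 3. Chrna6, a nicotinic receptor subunit of dopamine neurons, had 87.6 normalized counts there and 2.34 to 9.34 in the other libraries. Foxa1, En1 and Lmx1b, factors of midbrain neurons, had 34.6, 27.7 and 27.7 there and at most 7.19, 2.40 and 8.69 elsewhere. Pitx3, the factor most specific to midbrain dopamine neurons, and Fev, that of serotonin neurons, stayed at or below 4.61 and 1.20 in every library. The summed level of the 15 genes was 1875 to 2797 in L192P and 1874 to 2449 in WT, most of it from Nr4a2 (log2 fold change -0.17 ± 0.08, adjusted p = 0.38) and Aldh1a1 (0.03 ± 0.29, adjusted p = 0.99), which cortex and its coverings also express. None of the 7 tested genes of the list was called, and their median log2 fold change was 0.55.

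Some markers of other brain regions were also highest in that library, among them 4 of the 13 hypothalamic markers with a mean of at least 1 normalized count. L192P replicates 1 and 4 were each the highest library for 3 of these 13. Replicate 3 was also highest for 4 of 10 hippocampal, 4 of 10 choroid plexus, 3 of 8 astrocyte and 3 of 8 endothelial and mural markers. It was highest for 0 of 14 striatal markers. Pmch and Hcrt, neuropeptides of the lateral hypothalamus, had 262 and 178 normalized counts in L192P replicate 3 and at most 16.8 and 12.1 in the others. The summed level of 15 hypothalamic markers was 337 to 1386 in L192P and 193 to 318 in WT without overlap, and 3 of the 8 tested markers (Avp, Oxt and Otp) were called, each higher in L192P. Oxt rose by 4.53 ± 0.72 on the log2 scale (adjusted p = 3.7e-07), and by 4.41 (adjusted p = 7.1e-05) without replicate 3. Without that library 4 of the 6 tested hypothalamic markers were called, each higher in L192P. Thalamic markers were highest in replicate 3 for 8 of 10 genes, with summed levels of 2743 to 6197 in L192P and 2245 to 3169 in WT, and 2 of them were called (Calb2 and Gbx2, both higher). Without L192P replicate 3 neither was called (adjusted p = 0.12 and 0.10), and edgeR did not call Gbx2 (adjusted p = 0.082). Ddc is also a gene of hypothalamic neurons, and it was the 1 presynaptic gene called without replicate 3. The part of other brain regions in the levels of Ddc and of the other presynaptic genes was not tested.

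Promoter sequence is shown for 4 of the presynaptic genes that were highest in L192P replicate 3. Hdc, also highest there, is not shown, and its window held a GC box (GGGCGG or its complement). The windows, from RefSeq on GRCm38.p6, a build other than that of the counts, run from 250 bases before to 50 after each start site and were found for 31 of the 38 genes. The cyclic AMP response element TGACGTCA, which reads the same on both strands, occurred in the windows of Th and Slc18a2 among the monoamine genes and in 1.79% of all 32851 windows. It began 45 bases before the start site of Th and 4 bases before that of Slc18a2. The element AAAGGTCA, named for receptors of the Nr4a family, was searched on both strands and was present in 1.51% of all windows. It lay in 1 of the 2 windows of Ddc as TGACCTTT, 73 bases before the start site of that window. Its last 3 bases overlap a match to TTTATA, the TATA motif read on the other strand. The window at the other Ddc start site, further along the gene, held neither AAAGGTCA on either strand nor TGACGTCA. Slc6a3 had neither element, but 3 GC boxes (GGGCGG, both strands). At least 1 GC box lay in 35.7% of all windows and in 26 of the 40 windows of monoamine genes. Capitals mark the named element in each stretch of 60 bases, written in the direction of the gene, and a match describes the letters only.
Th, chr7:142900007-142900066, minus strand: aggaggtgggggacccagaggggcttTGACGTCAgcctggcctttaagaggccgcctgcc
Slc18a2, chr19:59260823-59260882, plus strand: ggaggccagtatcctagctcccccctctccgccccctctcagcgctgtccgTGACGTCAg
Ddc, chr11:11898184-11898243, minus strand: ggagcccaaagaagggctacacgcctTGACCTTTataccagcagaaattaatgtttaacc
Slc6a3, chr13:73536692-73536751, plus strand: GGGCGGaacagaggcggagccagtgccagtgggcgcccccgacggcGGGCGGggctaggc

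The monoamine oxidases were well counted and close between the genotypes. Maoa, which prefers serotonin and noradrenaline, had 896.9, 888, 951 and 834 normalized counts in L192P and 834, 774, 751 and 876 in WT. Maob, found mainly in glia and serotonin neurons, had 513, 572, 624 and 630.1 in L192P and 429.8, 582, 595 and 527 in WT. The groups overlapped for both genes. The log2 fold changes were 0.14 ± 0.08 (adjusted p = 0.60) for Maoa and 0.13 ± 0.12 (adjusted p = 0.85) for Maob. Both genes lie on the X chromosome. The Xist-low libraries of replicate 1 did not stand apart in Maoa, and in Maob they were the lowest library of each genotype.

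Among the 5 dopamine receptors, Drd2 fell in L192P in the fit with the replicate block. Its normalized counts were 1314, 1421, 1218 and 1407 in L192P and 1474, 1726, 1518 and 1847 in WT. All 4 L192P libraries lay below all 4 WT libraries. The difference on the log2 scale was -0.29 ± 0.09 with a DESeq2 adjusted p of 0.064, and -0.29 ± 0.07 with an adjusted p of 0.0017 with the replicate block. Within the 4 pairs the log2 ratios were -0.17, -0.28, -0.32 and -0.39. Without both replicate 1 libraries, which differ from the others in Xist, Drd2 fell by 0.33 (adjusted p = 0.013), and without L192P replicate 3 the log2 fold change was -0.25 (adjusted p = 0.30). With the block and without L192P replicate 3 it was -0.28 (adjusted p = 0.15). Of the 27 alternative fits that gave Drd2 an adjusted p, 7 called it. Drd2 lies on chr9:49251654-49319477 of GRCm39, plus strand.

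Drd1 had 1550, 1393, 1253 and 1488 normalized counts in L192P and 1601, 1570.4, 1426 and 1865 in WT. Each L192P library was below the WT library of its number, but the groups overlapped. For Drd1 the log2 fold change was -0.18 ± 0.09 (adjusted p = 0.53, and 0.13 with the replicate block). The remaining dopamine receptors were thinly counted. Drd5, a stimulatory receptor like Drd1, varied between 21.6 and 81.9 normalized counts in L192P, and between 23.4 and 72.8 in WT. Drd3 and Drd4, inhibitory receptors like Drd2, stayed between 5.08 and 18.0 in all libraries, and none of the 3 had a log2 fold change beyond its standard error.

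Drd1 and Drd2 are the receptors of the direct and indirect pathway neurons of the striatum, which lies under the cortex, so markers of these neurons were read beside them. Of 14 such markers 2 fell in L192P, among them Penk by 0.51 ± 0.10 on the log2 scale (adjusted p = 2.9e-04), beside 0.569% of all genes called lower. Penk encodes the enkephalin of indirect pathway neurons. The log2 fold change was below 0 for 12 of the 14, with a median of -0.26, and with the block 6 were called, each of them lower. Penk was not called by edgeR without the block (adjusted p of 0.055), or by DESeq2 without both replicate 1 libraries (0.060). The summed level of the list was 36445 to 45241 in L192P and 48030.4 to 58712 in WT, without overlap.

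The other 12 markers were not called without the block. Adora2a, the adenosine receptor of indirect pathway neurons, had a log2 fold change of -0.30 ± 0.10 (adjusted p = 0.099), and Ppp1r1b, the dopamine-regulated phosphatase inhibitor of both kinds, of -0.21 ± 0.09 (adjusted p = 0.32). Tac1 and Pdyn, peptides of direct pathway neurons, were at -0.07 ± 0.10 and 0.02 ± 0.09. The ratio of Drd2 to Adora2a was 0.623 to 0.673 in L192P and 0.631 to 0.663 in WT, a log2 difference of 0.01 (two-sided exact permutation test, p = 0.80, adjusted 0.80 over 3 ratios). The ratio of Drd2 to Drd1 was 0.847, 1.02, 0.971 and 0.946 in L192P replicates 1 to 4. In WT it was 0.921, 1.10, 1.06 and 0.991. Each L192P ratio was below the WT ratio of its number, with overlapping ranges. The log2 difference was -0.11 (exact permutation p = 0.26, adjusted 0.51). The ratio of Drd1 to Tac1 differed by -0.11 on the log2 scale (exact permutation p = 0.34, adjusted 0.51). The smallest p that 4 against 4 libraries allow is 0.0286, and none of the 3 tests used the pairing. The 3 ratios were chosen after the values were seen, and the part of striatal tissue in the level of Drd2 was not tested.

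**Figure D5:**
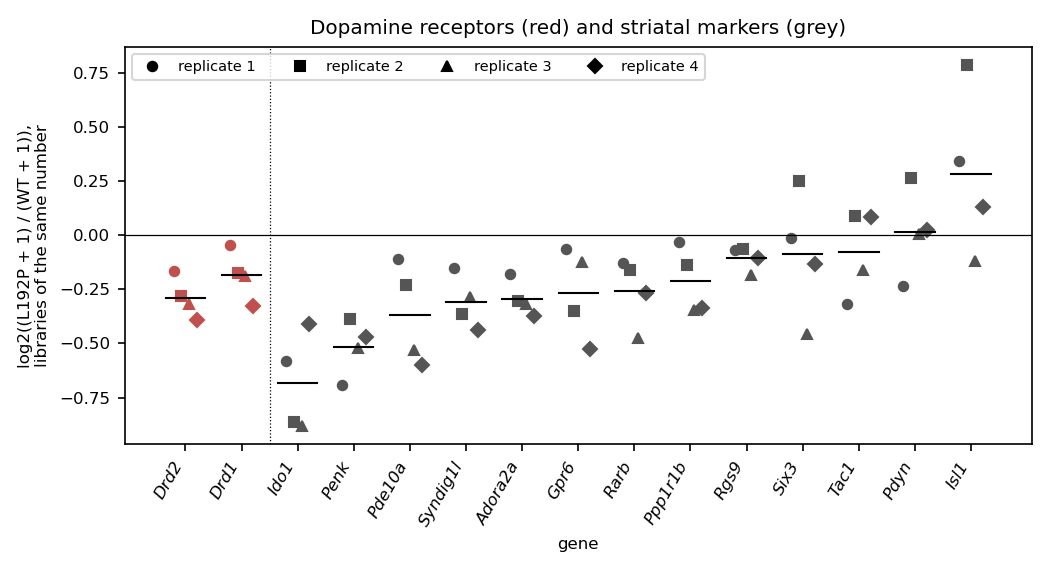
Each point is the log2 ratio of the L192P over the WT library of the same replicate number, with 1 normalized count added to each, and the line is the mean of the 4 pairs. Drd2 and Drd1 (red) lie below 0 in every pair, as do the 9 markers plotted from Ido1 to Rgs9, while Six3, Tac1, Pdyn and Isl1 (grey, right) scatter around or above 0.

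Of the 12 serotonin receptors, 7 had a log2 fold change above 0 and 5 below 0. Htr2c, a receptor of projection neurons and of the choroid plexus, had 1686, 1591, 1747 and 1677 normalized counts in L192P and 1665, 1265, 1143 and 1501 in WT. Each L192P library was above the WT library of its number, and WT replicate 1 lay among the L192P values. The log2 fold change was 0.27 ± 0.10 with an adjusted p of 0.26, and 0.28 ± 0.09 with an adjusted p of 0.035 with the replicate block. Without both replicate 1 libraries Htr2c rose by 0.36 on the log2 scale (adjusted p = 0.0086), and without L192P replicate 3 the log2 fold change was 0.25 (adjusted p = 0.55). With the block and without L192P replicate 3 it was 0.17 (adjusted p = 0.88). Htr2c lies on the X chromosome (chrX:145745509-145980286 of GRCm39, plus strand). None of 10 choroid plexus markers was called in either fit, and their median log2 fold change was 0.01. Ttr, the most abundant of them, varied between 15365 and 35796 normalized counts in L192P, and between 13045 and 30149 in WT, so the ranges overlapped.

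Htr2a, the excitatory receptor on which classical psychedelics act, had 845, 595, 550.0 and 753 normalized counts in L192P and 925, 774, 667 and 897 in WT. It was lower in L192P in all 4 pairs with overlapping groups, and the log2 fold change was -0.25 ± 0.14 (adjusted p = 0.60, and 0.064 with the replicate block). edgeR with the block called it (adjusted p = 0.038), and none of the other alternatives did.

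Of the inhibitory Htr1 receptors, Htr1b and Htr1d differed in opposite directions without passing the test. Htr1b, a release-limiting receptor on axon terminals, had 507, 436, 455 and 492 normalized counts in L192P and 602, 536, 531 and 570.1 in WT, and Htr1d, its close relative, had 144, 157, 135 and 133 in L192P and 97.4, 93.8, 98.9 and 123 in WT. The groups did not overlap for either gene. The log2 fold change of Htr1b was -0.24 ± 0.09 (adjusted p = 0.22, and 0.16 with the block). That of Htr1d was 0.47 ± 0.16 (adjusted p = 0.12, and 0.20 with the block). Neither passed the threshold in any of the alternatives tried. Htr1a, the inhibitory receptor of pyramidal cells, ran from 463 to 609 in L192P and from 425 to 661 in WT, and Htr1f from 25.4 to 42.0 and from 35.5 to 51.5.

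Htr4, a stimulatory receptor, had 79.4, 95.6, 113 and 92.2 normalized counts in L192P and 68.3, 40.1, 85.8 and 43.3 in WT. It was higher in all 4 pairs, with WT replicate 3 above the lowest L192P library. For Htr4 the log2 fold change was 0.69 ± 0.25 (adjusted p = 0.19), and without WT replicate 3 it was 0.92 with an adjusted p of 0.0496. Htr7, another stimulatory receptor, had 332, 304, 312 and 325 in L192P and 288, 259, 279 and 297 in WT. Its groups did not overlap, and the log2 fold change was 0.19 ± 0.10 (adjusted p = 0.59).

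Htr3a, the ion channel receptor of a class of cortical interneurons, had 163, 83.1, 140 and 164 normalized counts in L192P and 110.2, 121, 88.0 and 135 in WT. L192P replicate 2 was the lowest of all libraries, and the log2 fold change was 0.28 ± 0.21 (adjusted p = 0.79). Of 12 markers of such interneurons 3 rose in L192P and 1 fell. Sncg, a synuclein, rose by 1.29 ± 0.24 (adjusted p = 6.9e-05), Calb2, calretinin, by 1.11 ± 0.29 (adjusted p = 0.014), Ndnf by 0.50 ± 0.12 (adjusted p = 0.0092), and the peptide gene Cck fell by 0.23 ± 0.07 (adjusted p = 0.0498). Without L192P replicate 3 only Sncg was called (adjusted p = 0.0044), and with the replicate block 4 of the 12 rose and 2 fell. Calb2 stands in the thalamic list as well. Vip, Reln and 6 others of the list were not called, and the median log2 fold change of the 12 was -0.02. Htr5a, Htr5b and Htr6 had log2 fold changes of 0.03 ± 0.10, 0.28 ± 0.34 and -0.12 ± 0.18, and none was called in any fit.

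None of the 7 adrenergic receptors was called with or without the replicate block. Adra2a, the receptor that restrains noradrenaline release and a target of drugs for attention deficit, had 456, 525, 412 and 480.3 normalized counts in L192P and 462, 489, 401 and 453 in WT. The ranges overlapped, and the log2 fold change was 0.05 ± 0.10 (adjusted p = 0.97). Adra1b, Adra2c and Adrb1 had log2 fold changes of -0.04 ± 0.11, -0.04 ± 0.09 and -0.10 ± 0.11, at 407 to 582, 739 to 948 and 729 to 1044 normalized counts over all libraries. Adra1a was at 0.26 ± 0.17 (adjusted p = 0.71).

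Adra1d, an excitatory receptor, had 599.8, 551, 616 and 450.4 normalized counts in L192P and 543, 811, 743 and 583 in WT. WT replicate 1 was the lowest WT library and lay inside the L192P range. The log2 fold change was -0.28 ± 0.14 (adjusted p = 0.51), and with the replicate block and without both replicate 1 libraries it was -0.40 (adjusted p = 0.025). Adra2b, a relative of Adra2a with a marked level in thalamus, had 30.8, 30.7, 70.3 and 31.1 normalized counts in L192P and 27.3, 30.5, 25.0 and 22.2 in WT. The groups did not overlap by a narrow margin, and replicate 3 again stood apart. Adra2b had a log2 fold change of 0.62 ± 0.34 (adjusted p = 0.59), and 0.22 ± 0.34 (adjusted p = 0.996) without L192P replicate 3.

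The 3 histamine receptors did not separate the genotypes. Hrh3 varied between 1618 and 1981 normalized counts in L192P, and between 1789 and 2012 in WT, with a log2 fold change of -0.04 ± 0.08 (adjusted p = 0.96). Hrh1, the excitatory receptor blocked by sedating antihistamines, ran from 331 to 399 and from 330 to 449.5, and Hrh2, the stimulatory receptor, from 275 to 299 and from 237 to 336. Their log2 fold changes were -0.02 ± 0.12 and -0.05 ± 0.13.

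Genes that act with the monoamine system were read from 3 further lists of 44 genes. Of these 38 were tested and 3 fell in L192P, beside 0.569% of all tested genes called lower. All 3 carry signals below the receptors. Rgs4, which ends signalling of inhibitory G proteins, fell by 0.50 ± 0.10 (adjusted p = 4.8e-04), Adcy1, a calcium-driven adenylyl cyclase, by 0.32 ± 0.07 (adjusted p = 0.0027), and Ncs1, a calcium sensor that binds the D2 receptor, by 0.29 ± 0.07 (adjusted p = 0.011) on the log2 scale. edgeR without the block called none of them, with adjusted p of 0.063, 0.075 and 0.11. Rgs4 had 14586, 14075, 11169 and 16148 normalized counts in L192P and 17535, 20400, 19021 and 22195 in WT. The groups did not overlap for any of the 3, beside 5.97% of all tested genes. These 3 were picked by their p in the same libraries.

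Of the 21 signalling genes, 16 had a log2 fold change below 0, and the median was -0.12. With the replicate block 9 of them fell, beside 2.43% of all genes called lower in that fit. Among the 9 were Ppp1r1b (by 0.21, adjusted p = 0.0057), Adcy5, Gng7, Gnal and Pde10a, which serve the dopamine receptors of striatal neurons. Caly, a partner of the D1 receptor, rose in the same fit by 0.19 (adjusted p = 0.034). Without L192P replicate 3 the 3 called genes (Adcy1, Ncs1 and Rgs4) were called again, and with the block and without that library these 3 were the only signalling genes called, so that Ppp1r1b (adjusted p = 0.42), Caly (adjusted p = 0.58) and the other 5 were not. Ppp1r1b, Pde10a and Rgs9 stand in the striatal list as well. Of 15 tested genes of cofactor supply, degradation and low-affinity transport none was called, with Qdpr, which recycles the cofactor of the hydroxylases, at -0.16 ± 0.11. Gch1, which starts the synthesis of that cofactor, had 53.0 normalized counts in L192P replicate 3 and 13.7 to 24.0 in the other libraries. Of 6 further receptors, 2 were tested and neither was called (Adrb3 at -0.22 ± 0.25), and Hrh4 and Taar1 had 0 counts in every library.

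Markers of the cells that carry these receptors in cortex gave the setting. None of 13 markers of cortical excitatory neurons was called, 12 had a log2 fold change below 0 with a median of -0.13, and their summed level was 45642 to 51583 in L192P and 52191 to 54580 in WT. With the block 4 of them were called, each lower. Slc17a7, the vesicular glutamate transporter, was at -0.13 ± 0.05 and Bcl11b at -0.04 ± 0.08. None was called either of 10 hippocampal markers (Fam163b 0.05 ± 0.07, Prox1 -0.05 ± 0.29), 8 astrocyte markers (Slc1a3 -0.01 ± 0.19, Gfap 0.21 ± 0.23), 8 of endothelial and mural cells (Rgs5 0.08 ± 0.26, Pdgfrb 0.05 ± 0.18), 5 of red blood cells (Hbb-bs 0.45 ± 0.30, Hba-a1 0.25 ± 0.29) and 8 early response genes (Egr1 -0.31 ± 0.12, Arc -0.47 ± 0.61), all as log2 fold changes. Kl, with Ttr the best counted of the choroid plexus genes, was at -0.05 ± 0.29. The part of these cells in the results above was not tested.

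Exons of 15 of the 38 genes overlap a gene on the other strand in the annotation, and the strand setting of the counting was not stated, so reads of the partners may be held in common. The partner of Ddc had at most 1 count in any library and that of Htr1b 50 to 127. For Slc18a2 the partner Pdzd8 had 1447 to 2776 counts. No gene overlapped an exon on its own strand.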

How the data were processed

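The deposited table held raw counts per gene for 4 L192P and 4 WT cortex libraries. The authors made stranded mRNA libraries, aligned the reads with STAR 2.7.9a to GRCm39, counted them with featureCounts 1.5.1 (versions per the labels) and did not pool replicates. Their table of normalized values was not used. The strand setting was not given in the sources used here.

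Counts of all genes were compared by DESeq2 1.42.0 (R 4.3.3) on genotype alone (Wald test, Benjamini-Hochberg adjustment, call at 0.05, independent filtering at 0.05, Cook filter, no fold threshold). Fold changes were not shrunk. Alternatives were edgeR 4.0.16, limma 3.58.1 voom, TMM and total-count factors, a filter of 10 counts in 4 libraries, filters off, the replicate block and leaving out libraries. The 38 genes, the gene lists and the alternatives were chosen with earlier results of these data known. Every member is given by role. Values in each library were given for the 3 with the smallest p in each direction and the best known gene of each role. Of the other lists, called genes or else the 2 most counted were named, and genes beyond that were named after their values were seen. A few genes of these lists are counted but not reported here by name.

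Over 13422 genes with a mean of at least 50 normalized counts, deviations from the genotype means correlated at 0.233 to 0.628 between the 4 pairs of libraries with the same number, and at -0.375 to 0.144 between the 12 other pairs. The numbers come from the labels, and were taken to pair the libraries. No pair of libraries of a genotype agreed within sampling noise (chi-square per degree of freedom of at least 5.52). The labels name replicates without saying that they are separate mice, so p-values measure the spread between these libraries. Gene positions came from GENCODE M39, in which 98.8% of the identifiers were found. DESeq2 with and without the block, edgeR and voom were tested on simulated counts. These held no replicate effect and no outlying library, so how the fits handle either was not tested.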

Additional observations from a re-analysis of the deposited data

Results flagged for a closer look

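Of 72 sets of 4 libraries (36 genes in 2 genotypes), 4 had a library beyond the critical gap of Dixon's test for 4 values, which sets the gap to the nearest library against the range of the set. Chance gives about 1 in 20, or 3.6 of 72. All 4 were L192P replicate 3. Th had 368 normalized counts there and 76.6 to 104 in the other L192P libraries. Ddc had 609.9 there and 249 to 286 in the others, Slc6a3 had 629.5 against 3.74 to 9.58, and Adra2b had 70.3 against 30.7 to 31.1. Genes of monoamine cell bodies, hypothalamus and thalamus were high in the same library, as given above. The summed hypothalamic markers were 337 to 944 in the other L192P libraries and 193 to 318 in WT. The summed thalamic markers were 2743 to 4791 and 2245 to 3169. The part of all these genes in the flagged values was not tested.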

How the results depend on the processing

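No direction reversed: over 29 alternatives, the 261 fold changes of the 9 monoamine genes with an unadjusted p under 0.05 had the same sign. Of these values 26 passed the threshold, 215 did not, and 20 had no adjusted p. The 9 genes were picked by their p in the main fit of the same libraries, so a kept sign is no independent support. Without WT replicate 1 Drd2 and Htr2c were called, without WT replicate 3 Htr4, and without L192P replicate 2 or 3 Ddc.

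The number of all genes called was 253. It was 53 with edgeR, 45 with voom, 513 with edgeR and the replicate block, 533 with DESeq2 and the block, 112 to 496 when 1 library was left out (496 without WT replicate 1), 500 without both replicate 1 libraries and 76 without both replicate 3 libraries. With the block it was 572 without both replicate 1 libraries, 148 without both replicate 3 libraries, 544, 138, 119 and 139 without L192P replicates 1 to 4, and 551, 126, 127 and 140 without WT replicates 1 to 4. Total-count factors gave 168 higher and 64 lower calls, against 147 and 106.

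The number of monoamine genes called was 0, and 3 with the block in DESeq2 or edgeR, 0 to 2 when 1 library was left out, 2 without both replicate 1 libraries and 1 without both replicate 3 libraries. With the block it was 3 without both replicate 1 libraries, without L192P replicate 1 or without WT replicate 1, and 1 without both replicate 3 libraries, without L192P replicate 2 or without WT replicate 2 or 3, and 0 without L192P replicate 3 or 4 or WT replicate 4. Without L192P replicate 4 or WT replicate 4 the blocked fit gave none of the 9 genes an adjusted p. The number of related genes called was 3. It was 0 with edgeR or voom, 7 with edgeR and the block, 10 with DESeq2 and the block, 2 to 6 when 1 library was left out, 6 without both replicate 1 libraries and 1 without both replicate 3 libraries. With the block it was 10 without both replicate 1 libraries, without L192P replicate 1 or without WT replicate 1, 6 without L192P replicate 2, 3 without L192P replicate 3 or WT replicate 2, and 4 without L192P replicate 4, WT replicate 3 or 4 or both replicate 3 libraries. The fits that combine the block with a left-out library, and those without both replicate 3 libraries, were chosen after seeing the data. The cause of these differences was not tested. Counts were low for Dbh, Drd3, Drd4, Slc6a2, Slc6a4 and, outside L192P replicate 3, Slc6a3. Dbh, Drd3 and Drd4 still had an adjusted p in the main fit. The p of Slc6a3 was withheld there for its extreme library.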
